A study of Rattus norvegicus with 6 samples.

Results

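The miRNAs of 4 imprinted loci outside the Dlk1-Dio3 cluster were examined in the lens capsule of Sprague-Dawley rat pups. They were taken as every row of the miRNA count table named rno-miR-335, rno-miR-296, rno-miR-298, rno-miR-483 or rno-miR-675, with either arm, which gave 9 rows of the 910 in the table. Rows for both arms were found for miR-296, miR-298, miR-483, and miR-675, and 1 row without an arm suffix was found for miR-335. Pups were 8 days old at the start. The Na2SeO3 group (n = 3 pups) had sodium selenite under the skin of the neck at 20 μmol/kg on days 3, 5, and 7, a treatment used to induce cataract, and the control group (n = 3 pups) had saline on the same days. The lenses were taken on day 15, and each small RNA library came from a different pup. The dissected capsule is a bulk sample, so a change in the cells it holds and a change of a miRNA within those cells cannot be told apart.

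An imprinted gene is read mainly from the copy inherited from one parent, and many imprinted genes act on growth before and soon after birth. Mest, whose intron carries miR-335, is read from the paternal copy, and so is Nespas, the transcript antisense to the start of Gnas that carries miR-296 and miR-298. Igf2, a fetal growth factor gene read from the paternal copy, carries miR-483 in an intron, and its neighbour H19, a non-coding RNA read from the maternal copy, is itself the precursor of miR-675. In the RefSeq annotation of rat assembly GRCr8, Mir483 lies inside Igf2, Mir675 lies inside H19, and Mir296 and Mir298 are neighbours, with Gnas next after Mir298. The products of a precursor are its 5p and 3p arms, and bases 2 to 8 of each arm, the seed, lead its pairing with target mRNAs.

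The mature sequences are shown because these loci form no seed family. RefSeq gave a sequence for 8 of the 9 rows, written 5′ to 3′ with the seed in capitals, and rno-miR-335 was not matched.
rno-miR-296-5p: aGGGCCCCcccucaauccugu
rno-miR-296-3p: gAGGGUUGgguggaggcucucc
rno-miR-298-5p: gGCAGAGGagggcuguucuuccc
rno-miR-298-3p: aGGAACUAgccuucucucugcu
rno-miR-483-5p: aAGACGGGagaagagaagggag
rno-miR-483-3p: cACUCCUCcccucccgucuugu
rno-miR-675-5p: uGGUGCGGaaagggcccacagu
rno-miR-675-3p: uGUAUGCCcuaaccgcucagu

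The 8 seeds all differ from each other, and none is shared with another of the 693 rat mature miRNAs in the RefSeq table. Each mature sequence was found in 1 hairpin of that table only. The arms are rich in G and C, from 50.0% in rno-miR-298-3p to 68.2% in rno-miR-296-3p, where the median over all rat mature miRNAs was 47.8%. The arms of miR-483 are also lopsided in purines, which make up 95.5% of rno-miR-483-5p and 13.6% of rno-miR-483-3p.

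Total counts were 1806596 to 2829903 per control library and 663096 to 968151 per Na2SeO3 library, so 3 reads, taken as the detection limit, equal 1.04 to 1.94 CPM in control and 2.72 to 4.37 CPM in Na2SeO3 libraries. The paper reports raw read numbers far closer between the groups than these totals. A smaller share of the reads was thus counted as miRNA in the Na2SeO3 group, and why it differed was not tested. CPM here and below are counts scaled to library total and corrected with TMM, unless stated. They are relative to the counted reads, and depth means the counted total. Reads carry no molecular identifiers and may be copies of one molecule, so intervals and limits take in counting error alone. Lens and ocular surface miRNAs (miR-184, miR-204, miR-205, and miR-26a) were abundant, at a summed 128562 to 143784 CPM in the control and 74841 to 87607 CPM in the Na2SeO3 group, and 1 of 5 tested was called lower. Among lists of other tissues, striated muscle miRNAs summed to 6386 to 8163 CPM in control and 12869 to 14215 CPM in Na2SeO3 libraries (6 rows counted, 1 of 5 tested called higher, miR-206-3p). Glial miRNAs summed to 87.7 to 94.6 and 151 to 180 CPM (6 rows, 1 of 4 called higher), with the defining rno-miR-219a-5p counted in 1 library of each group. The row called, rno-miR-219a-2-3p, held 7, 13, and 5 reads in control and 59, 81, and 69 reads in Na2SeO3 libraries 1 to 3 (log2 fold change 4.26, adjusted p = 2.04e-06, edgeR), and without it the glial sums overlapped at 85.3 to 88.0 and 65.5 to 106 CPM. Within this list rno-miR-338-3p stood at -0.93 on the log2 scale and did not pass (adjusted p = 0.0519, edgeR). Erythroid miRNAs summed to 254 to 306 and 404 to 518 CPM (4 rows, 1 of 3 called higher, miR-486), and without miR-486 they also overlapped, at 123 to 146 and 121 to 173 CPM. Leukocyte (141.6 to 178 and 114 to 167 CPM, 6 rows, 0 of 4 called) and neuronal miRNAs (30351 to 37744 and 37173 to 46931 CPM, 5 rows, 0 of 5 called) overlapped between groups, and vessel and mesenchyme miRNAs were lower without overlap, at 52275 to 60794 and 45407 to 51623 CPM (6 rows, 0 of 6 called). The lens list was lower and the muscle list higher in the Na2SeO3 group with and without the row called in each, the vessel and mesenchyme list was also lower, and the higher glial and erythroid sums each rested on a single row. Over all names tested, 11.4% were called higher, and the shares called lower or lower without overlap were not counted. The part of these lists in the results was not tested.

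Most of the 9 miRNAs were rare in the lens capsule. All 9 were counted in at least 1 library and 6 in all libraries, and their sum was 72.2 to 88.0 CPM in control and 103 to 131 CPM in Na2SeO3 libraries. Group means of 77.9 ± 8.79 and 121 ± 15.3 CPM (SD, n = 3 each) gave a 1.55-fold difference without overlap between the groups (exact permutation test, two-sided, p = 0.1, which is the lowest that 3 libraries against 3 allow). Since miR-335 supplied most of these reads, the log2 ratio of the group means moved from 0.64 to 1.46 when it was left out. The loci did not share this difference equally. It was 1.10-fold at Mest, 2.28-fold at Gnas/Nespas, 5.34-fold at Igf2, and 3.45-fold at H19. In control libraries Mest was the most abundant, followed by Gnas/Nespas, and then by Igf2 and H19, which did not differ beyond their spread at 2.30 ± 0.50 and 2.49 ± 2.09 CPM (SD, n = 3 each).

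**Figure D1:**
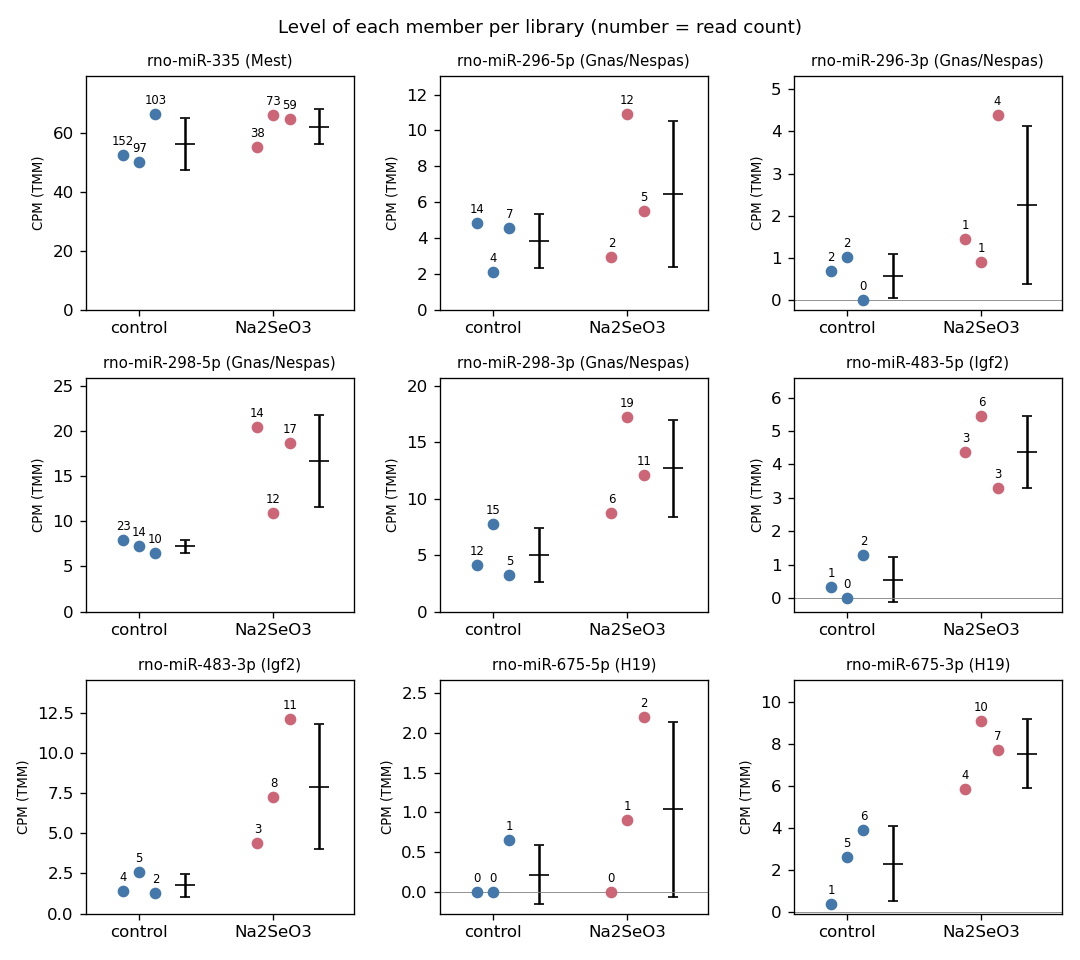
Level of each of the 9 miRNAs in each library. The vertical axis is CPM after TMM scaling, points are libraries 1 to 3 of the control (blue) and Na2SeO3 (red) groups with the read count written above, and the black bar is the mean ± SD (n = 3). All Na2SeO3 points lie above all control points for both arms of miR-298, both arms of miR-483, and miR-675-3p, while miR-335 and both arms of miR-296 overlap.

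Only 3 of the 9, miR-335 and the arms of miR-298, had enough reads to pass the filter on low counts and enter edgeR's quasi-likelihood test, and the miR-298 arms entered through the Na2SeO3 libraries, in which they were higher. With thresholds of 0.05 on the adjusted p-value and 1 on the absolute log2 fold change, both arms of miR-298 were called higher and miR-335 was not called. Over all miRNAs tested, 11.4% were called higher. Since the filter favours rare miRNAs that are high in one group, the number called among these 3 is no support for a change of the loci. Without the filter, all 725 names with a count were tested, and 0 of the 9 were called, where 4.28% of all names were called higher. In that fit 4 of the 9 had an unadjusted p under 0.05 (edgeR), all higher in the Na2SeO3 group, where 14.5% of all names did, and DESeq2 on the filtered names also called 0. In 5 of the 9 every Na2SeO3 library lay above every control library, as it did in 14.2% of all names with a count. As CPM of the library total, without TMM, this held for 7 of the 9 and for 20.0% of all names, a comparison added after seeing the data.

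**Figure D2:**
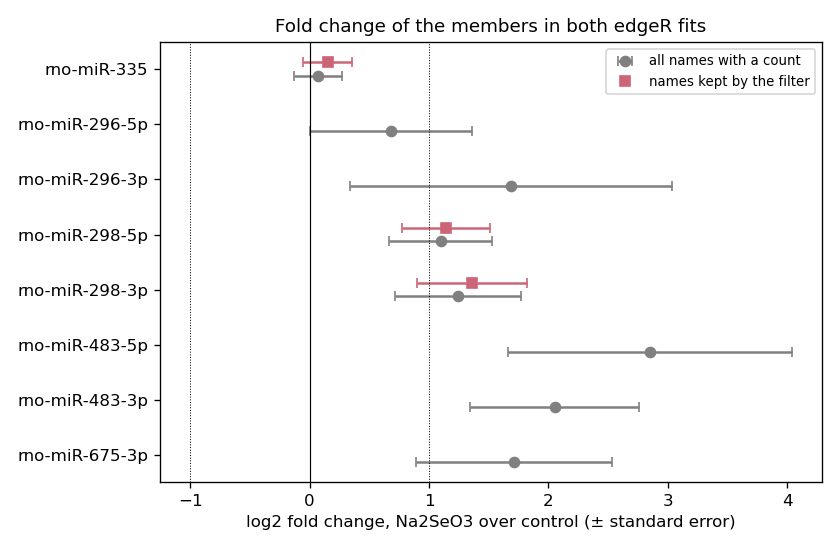
Log2 fold change of the 8 miRNAs with over 3 reads in some library, Na2SeO3 over control, with its standard error (horizontal axis). Red squares are from the edgeR fit on the names kept by the filter and grey circles from the fit on all 725 names with a count, and dotted lines mark a log2 fold change of 1 in either direction. All points lie to the right of 0, miR-335 is nearest to 0, and the bars of the rarest arms are widest.

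The miRNA of the Mest locus, miR-335, which has been studied as a suppressor of metastasis, was by far the most counted of the 9. Control libraries 1 to 3 held 152, 97, and 103 of its reads (52.5, 50.2, and 66.7 CPM), and Na2SeO3 libraries 1 to 3 held 38, 73, and 59 (55.3, 66.3, and 64.9 CPM). The groups overlapped, with means of 56.4 ± 8.92 and 62.2 ± 5.96 CPM (SD, n = 3 each). As CPM of the library total they did not, with the highest control library at 57.0 and the lowest Na2SeO3 library at 57.3. In edgeR the log2 fold change was 0.15 (standard error 0.20, Benjamini-Hochberg adjusted p = 0.623). Its pooled rate ratio of 1.14 had a 95% counting interval of 0.94 to 1.37. It held 522 reads in all, more than the other 8 rows together, and still made up between 0.0047% and 0.0075% of the counts of a library.

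Of the Gnas/Nespas miRNAs, miR-298, studied in the mouse for acting on the mRNA of the protease Bace1, was the more abundant. The 5p arm was counted 23, 14, and 10 times in control libraries 1 to 3 and 14, 12, and 17 times in Na2SeO3 libraries 1 to 3. Scaled, these were 7.95, 7.24, and 6.47 CPM against 20.4, 10.9, and 18.7 CPM, so that the lowest Na2SeO3 library still lay above the highest control library. In edgeR its log2 fold change was 1.14 (standard error 0.37, adjusted p = 0.0282), and it was 1.10 without the filter (adjusted p = 0.143, edgeR).

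The 3p arm of miR-298 was counted 12, 15, and 5 times in control and 6, 19, and 11 times in Na2SeO3 libraries 1 to 3. At 4.15, 7.76, and 3.24 CPM against 8.74, 17.2, and 12.1 CPM, control library 2 came within 1 CPM of Na2SeO3 library 1, and the groups did not overlap. Its log2 fold change was 1.36 (standard error 0.46, adjusted p = 0.0345, edgeR), and 1.24 without the filter (adjusted p = 0.180, edgeR). Both calls were lost with each control library left out and with Na2SeO3 library 3 left out. The call of the 3p arm was also lost without Na2SeO3 library 2 (adjusted p = 0.200) and that of the 5p arm without Na2SeO3 library 1 (adjusted p = 0.105, edgeR), and the log2 fold changes over these fits stayed between 0.97 and 1.41 for the 5p arm and between 1.04 and 1.77 for the 3p arm. The replicate block, with adjusted p-values of 0.0608 and 0.0615 (edgeR), also ended both calls, although same-numbered libraries did not deviate together.

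The balance of the arms of miR-298 did not separate the groups. The log2 ratio of the 5p to the 3p arm, with 0.5 added to each count, averaged 0.58 ± 0.59 in control and 0.37 ± 0.92 in Na2SeO3 libraries (SD, n = 3 each; two-sided exact permutation test, p = 0.7). It ranged from -0.10 in control library 2 to 0.93 in control library 3, and from -0.64 to 1.16 in Na2SeO3 libraries 2 and 1. The libraries thus did not even keep the same leading arm.

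The other precursor of this locus, miR-296, known for a role in the growth of blood vessels, was rarer. The 5p arm was counted 14, 4, and 7 times in control and 2, 12, and 5 times in Na2SeO3 libraries 1 to 3 (4.84, 2.07, and 4.53 CPM against 2.91, 10.9, and 5.50 CPM), and the groups overlapped. Without the filter the log2 fold change was 0.68 (standard error 0.68, adjusted p = 0.556, edgeR), and it was 0.078 without Na2SeO3 library 2, which held 12 of the 19 reads of that group. The 3p arm had 2, 2, and 0 reads in control and 1, 1, and 4 reads in Na2SeO3 libraries 1 to 3. The 0 of control library 3 allows up to 1.94 CPM, and the pooled rate ratio was 3.54 (95% counting interval 0.84 to 17.1), so no difference was detectable at this depth. The log2 fold change without the filter was 1.69, and it was 0.79 without Na2SeO3 library 3, which held 4 of the 6 reads of that group. The log2 ratio of miR-296 to miR-298 reads averaged -1.44 ± 0.64 in control and -1.79 ± 0.69 in Na2SeO3 libraries (SD, n = 3 each; exact permutation test, p = 0.5), so the groups were not separated by the balance of these neighbouring precursors.

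Summed over its 4 rows, the Gnas/Nespas locus stood at 17.6, 18.1, and 14.2 CPM in the control group and at 33.5, 39.9, and 40.7 CPM in the Na2SeO3 group, in the order of libraries 1 to 3. The means of 16.7 ± 2.11 and 38.0 ± 3.96 CPM (SD, n = 3 each) differed by more than either group's spread (exact permutation test, p = 0.1, adjusted p = 0.133 over the 4 loci). The counts behind them, 51, 35, and 22 against 23, 44, and 37, did not separate the groups before scaling to depth.

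The Igf2 locus had a 5.34-fold and H19 a 3.45-fold difference, but their order was not settled, as without control library 3 they stood at 5.69-fold and 5.85-fold, and their pooled rate ratios of 5.74 (95% counting interval 3.00 to 11.6) and 4.36 (2.13 to 9.33) had overlapping intervals. The 3p arm of miR-483, which has been studied in adipose tissue and fetal growth, was counted 4, 5, and 2 times in control and 3, 8, and 11 times in Na2SeO3 libraries 1 to 3, or 1.38, 2.59, and 1.29 CPM against 4.37, 7.26, and 12.1 CPM. The groups did not overlap. Without the filter its log2 fold change was 2.05 (standard error 0.70, adjusted p = 0.0960, edgeR), which did not pass. In the filtered fit without Na2SeO3 library 1, where 6 of the 9 were tested, this arm was called higher, but it passed that filter through the Na2SeO3 libraries, and without the filter the same libraries gave an adjusted p of 0.0756 (edgeR), which did not pass.

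The 5p arm of miR-483 had 1, 0, and 2 reads in control and 3, 6, and 3 reads in Na2SeO3 libraries 1 to 3. The 0 of control library 2 allows up to 1.55 CPM, and the Na2SeO3 values were 4.37, 5.45, and 3.30 CPM. Na2SeO3 libraries 1 and 3 stood at the detection limit of 3 reads and all control libraries under it. Only Na2SeO3 library 2 lay above the limit. With 12 reads against 3, the pooled rate ratio was 9.45 with a 95% counting interval of 2.55 to 52.2, and the test without the filter gave an adjusted p of 0.169 (edgeR). The log2 fold change in that test was 2.85, and it moved to 2.33 without control library 2 and to 3.93 without control library 3. Neither arm of miR-483 passed by itself.

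Together the arms of miR-483 gave 5, 5, and 4 reads in control and 6, 14, and 14 reads in Na2SeO3 libraries 1 to 3. The Na2SeO3 libraries held more of these reads although their total miRNA counts were lower, so the order of the groups was the same in raw counts as after scaling. As CPM of the library total, without TMM, Na2SeO3 library 1 stood at 9.05 (95% exact binomial interval 3.32 to 19.7) and the highest control library at 2.41 (0.78 to 5.62), so those intervals overlapped. After TMM scaling the group means stood at 2.30 ± 0.50 and 12.3 ± 3.35 CPM (SD, n = 3 each; exact permutation test, p = 0.1, adjusted p = 0.133).

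**Figure D3:**
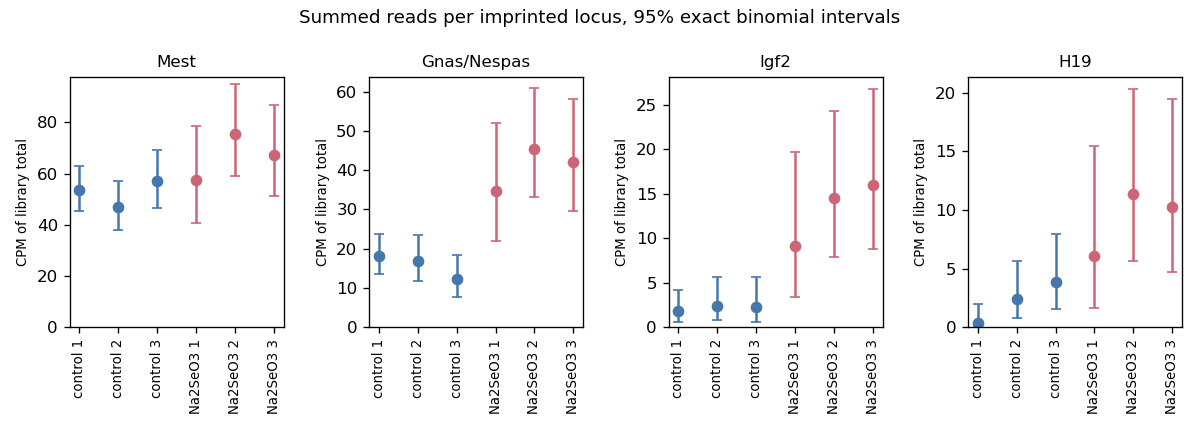
Reads summed per imprinted locus in each library, as CPM of the library total without TMM (vertical axis, starting at 0). Points are control (blue) and Na2SeO3 (red) libraries, and bars are 95% exact binomial intervals, which cover counting error only. The Na2SeO3 points lie above the control points at all 4 loci, by a narrow margin with overlapping bars at Mest, and the bars are wide at Igf2 and H19, where the highest library held 14 and 11 reads.

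At H19, the 3p arm of miR-675, whose host is known to hold back placental growth through this miRNA, was counted 1, 5, and 6 times in control and 4, 10, and 7 times in Na2SeO3 libraries 1 to 3. The values were 0.35, 2.59, and 3.88 CPM against 5.82, 9.08, and 7.70 CPM, without overlap. Its log2 fold change without the filter was 1.71 (standard error 0.82, adjusted p = 0.224, edgeR), and it moved to 1.13 without control library 1 and to 2.33 without control library 3. The 5p arm had 0, 0, and 1 reads in control and 0, 1, and 2 reads in Na2SeO3 libraries 1 to 3, all at or under the limit of 3 reads, and no fold change is given for it.

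Summed over both arms, H19 reads numbered 1, 5, and 7 in control and 4, 11, and 9 in Na2SeO3 libraries 1 to 3, and the raw counts overlapped. The scaled means were 2.49 ± 2.09 and 8.57 ± 2.38 CPM (SD, n = 3 each; exact permutation test, p = 0.1, adjusted p = 0.133). The control libraries varied more here than at Igf2, with library 1 at 0.35 CPM and library 3 at 4.53 CPM. The difference of 3.45-fold moved to 2.41-fold without control library 1 and to 5.85-fold without control library 3.

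Because the arms of a locus were each too rare to test well, the arms were also summed and the 4 sums put into the count table in place of the 9 rows, a choice made after these values were seen. In edgeR's quasi-likelihood test without a filter, with adjustment over the 720 rows left, Gnas/Nespas (log2 fold change 1.13, standard error 0.28, adjusted p = 0.0279) and Igf2 (2.35, standard error 0.54, adjusted p = 0.0225) passed both thresholds, where 4.86% of all rows were called higher. H19 (1.80, standard error 0.82, adjusted p = 0.212) and Mest (0.09, standard error 0.21, adjusted p = 0.787) did not pass (edgeR). Both calls held without Na2SeO3 library 1 and were lost when any of the other 5 libraries was left out, with adjusted p-values up to 0.102 for Gnas/Nespas, without control library 3, and 0.0768 for Igf2, without Na2SeO3 library 3 (edgeR). In these fits the log2 fold changes stayed between 1.02 and 1.21 for Gnas/Nespas and between 2.17 and 2.52 for Igf2.

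The largest imprinted miRNA cluster, Dlk1-Dio3, is set beside these loci as a description, with its direction known from earlier results on the same libraries. Of 92 rows listed, 53 were tested, 22 were called higher and 0 lower, and the median log2 fold change was 0.87 beside 0.08 over all names tested. The names most like each tested miRNA were those with the smallest root mean square difference of centred log2 CPM over the 6 libraries. For miR-298-5p they were miR-379-5p (0.14), miR-412-5p (0.16), and miR-134-5p (0.17), where the median name was at 0.63. For miR-298-3p they were miR-487b-3p (0.23), miR-539-5p (0.27), and miR-337-5p (0.28), with the median name at 0.74. All 6 are in the Dlk1-Dio3 list, which held 15.5% of the names tested and 22 of the 39 names called higher, and closeness by this measure largely restates a rise of similar size. The names most like miR-335 were miR-345-3p (0.10), miR-214-3p (0.11), and miR-434-5p (0.11), of which 1 is in the list, and the median name was at 0.34.

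As the arms of these loci are rich in G and C, base composition was set beside the fold changes. A RefSeq sequence was found for 90.8% of the 326 rat names tested. Those with at least 50% G and C had a median log2 fold change of 0.14 (114 names, 14.9% called higher), and those under it 0.05 (182 names, 8.79% called higher). Without the filter, the fit in which the rarer arms were tested, 4.13% and 3.52% were called higher. The part of base composition in the results was not tested.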

How the data were processed

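Per the methods, small RNA reads were filtered by the authors (Cutadapt, Fqtrim), their quality was assessed (FastQC), and miRDeep aligned them to the rat reference from Ensembl. The authors deposited raw read counts per miRNA name for 6 libraries (3 control, 3 Na2SeO3). The genome build and tool versions are not given in the sources used here. Counts were used as deposited. Names were kept with filterByExpr (minimum count 10), scaled with TMM, and compared with edgeR 4.0.16 (quasi-likelihood test, R 4.3.3, adjustment over all names tested), with DESeq2 1.42.0 as an alternative. DEmiRNAs, "called" in the text, had to pass 0.05 on the adjusted p-value and 1 on the absolute log2 fold change, the methods' thresholds. Standard errors came from the fold change and its F statistic. The procedure was tested on simulated counts. Single values per library were compared with exact permutation tests. The counts of each pair of libraries differed far beyond sampling noise. All 9 rows were named, with the 3 names most like each tested miRNA. The miRNAs, lists, and tests were chosen with earlier results of these data known.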

Additional observations from a re-analysis of the deposited data

How the results depend on the processing

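Of the 3 miRNAs tested, 2 were called. The number was 0 without the filter, 1 with at least 10 counts in every library (where miR-298-3p could not be tested), 0 with DESeq2, 0 when tested against a log2 fold change of 1 (glmTreat, chosen after seeing the data), and 0 to 2 with a library left out (without Na2SeO3 library 1 the 2 were miR-298-3p and miR-483-3p, of 6 tested). It stayed at 2 with 3 other scalings, edgeR's exact test, or rat names only. It was also 2 with no fold change threshold or with the unadjusted p, which loosen the rule and could not lower the number. A replicate block took the number to 0. Same-numbered libraries come from different pups, and their deviations from the group means correlated across miRNAs at -0.17, -0.18, and -0.26, so the numbers did not pair them. The log2 fold changes of miR-335 and the miR-298 arms kept their sign in these fits. Those of the 5 rarer arms with over 3 reads in some library were compared over fits without the filter (block, 2 other scalings, DESeq2, and each library left out) and kept theirs there. Some rarer arms also entered filtered fits with a Na2SeO3 library left out (6, 4, and 4 miRNAs tested without libraries 1, 2, and 3), which are not part of that comparison. In raw counts, chosen after seeing the data, the log2 ratio of group means reversed to -0.55 over all 9, -1.05 at Mest, and -0.054 at Gnas/Nespas. Raw counts lower the Na2SeO3 group by construction, as a smaller share of its reads was counted as miRNA. The ratio stayed positive at Igf2 and H19. The edgeR test on locus sums gave 1.13 for Gnas/Nespas and 2.35 for Igf2 and passed, where 3 libraries against 3 cannot pass in a permutation test. With a library left out, the group difference in the miR-298 arm balance ranged from -0.60 to 0.30 (positive without Na2SeO3 library 2), and that in the balance of miR-296 to miR-298 from -0.71 to 0.041 (positive without Na2SeO3 library 1). Depth limits both arms of miR-483, miR-675, and miR-296, with at most 14 reads per library.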
